A study of Mus musculus with 8 samples.

Results

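A set of 10 regulators of the choice between absorptive and secretory cells were followed in colon epithelium of mice labelled as mutant in 1 of 3 glycosyltransferases. The 10 genes are Atoh1, Spdef, Gfi1, Foxa3, Neurog3, Neurod1, Dll1, Dll4, Notch1 and Hes1. They were chosen by symbol, out of 24346 gene symbols in each expression table, and all 10 were found in all 8 tables. The choice was made with earlier results of these data known, so counts of members set beside shares of all genes are descriptions. RNA sequencing libraries came from intestinal epithelial cells of the colon of C57BL/6J mice, labelled as untreated primary cells. The 4 genotypes were wild-type, St6galnac6-/- (knockout of a sialyltransferase), B3galt5D116A (a substitution in a galactosyltransferase) and B3gnt7-/- (knockout of an N-acetylglucosaminyltransferase). Each genotype had 1 male and 1 female library, so a group is 2 libraries of different sex. The labels give no age and do not say whether a library is 1 animal or a pool. They describe the mutations as carried by the mice, with no restriction to a cell type stated.

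Notch signalling sets the balance of cell types in the crypt. A cell that presents the ligands Dll1 or Dll4 activates Notch1 on its neighbour, whose cleaved intracellular domain joins the DNA-binding protein RBPJ and turns on Hes1, a repressor of Atoh1. A cell that escapes the signal keeps Atoh1, the factor required for the secretory lineages, and goes on to become a goblet cell under Spdef, Gfi1 and Foxa3, or an enteroendocrine cell under Neurog3 and then Neurod1.

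Values are FPKM, fragments counted per kilobase of a transcript and set relative to the depth of its library, as the authors deposited them, and can be compared between genes since they are per length. The FPKM values of a library summed to between 518482 and 639537, and 11392 to 11663 genes per library stood at 1 FPKM or more. A value of 0 was listed for 8471 to 9175 genes per library, none of them one of the 10. The tables hold no read counts, so the number of reads behind a value was not computed here. Epcam, which marks epithelium, lay between 864 and 953 FPKM in the 8 libraries. The 9 epithelial markers that include it were less even. They summed to 12924 and 11320 FPKM in the wild-type male and female, and to 10072 and 9589 in St6galnac6-/-. The sums were 11485.5 and 11768.5 FPKM in B3galt5D116A, and 11366 and 9705 in B3gnt7-/-. Of the 9, 8, 5 and 7 had a negative log2 difference from wild-type in the 3 mutants, and none was called. The 13 endothelial markers summed to 1.76 to 2.74 FPKM per library, with Emcn, Erg and Sox17 at 0 in all 8, and the 13 T cell and intraepithelial lymphocyte markers found summed to 16.4 to 45.2 FPKM. The B3gnt7-/- female library stood apart in 2 ways. Its 13 fibroblast and muscle markers summed to 45.2 FPKM, against 12.01 to 16.5 FPKM in the others, with Dcn at 18.9 FPKM. Its summed heat shock genes, a list described with Hes1 and drawn up after a likeness to it was seen, were the lowest of the 8. Of the targeted genes, St6galnac6 had 218 and 232 FPKM in its knockout and 368 and 343 FPKM in wild-type, and B3gnt7 had 68.8 and 142 FPKM in its knockout and 215 and 189.8 FPKM in wild-type. Neither passed the test (limma, adjusted p = 0.340 and 0.657), and B3galt5 carries a substitution that a gene-level value does not check.

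In St6galnac6-/- colon, 9 of the 10 regulators were higher in both libraries than in both wild-type libraries, and none was lower in both. The exception was Neurog3. Neurod1, counted here and for B3galt5D116A, was too low to be tested, so it lies outside the shares over tested genes. Its St6galnac6-/- female value was 0.597 FPKM, against 0.556 in the wild-type female. All 9 tested members had a positive fitted difference, beside 50.6% of tested genes. The 9 are not separate observations. Over the 8 libraries the Pearson r of a pair ran from -0.23 for Neurog3 and Dll4 to 0.91 for Gfi1 and Dll1. Across all tested genes, 24.1% stood above wild-type in this way and 23.6% below. Both B3galt5D116A libraries were above both wild-type libraries for 4 of the 10 (Spdef, Neurod1, Dll4 and Hes1) and below for Notch1, where 26.0% and 25.3% of tested genes were above and below. The B3gnt7-/- libraries were likewise above for 4 (Spdef, Gfi1, Dll1 and Dll4) and below for Notch1, where the shares over tested genes were 16.0% and 18.6%. Spdef and Dll4 were the members higher in all 6 mutant libraries than in both wild-type libraries, a pattern held by 7.23% of tested genes, and no member was lower in all 6, as 8.32% of tested genes were. The 3 comparisons share the same 2 wild-type libraries, so a low or high value there enters each of them.

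No member passed the test in any comparison. Differences were fitted with limma on log2(FPKM + 1), with genotype and sex as terms, for the 11537 genes whose mean reached 1 FPKM, and called at a Benjamini-Hochberg adjusted p under 0.05. Neurod1, with a mean of 0.583 FPKM, was under that filter, which left 9 members. Over all tested genes 0.0867% were called in St6galnac6-/-, 0.0780% in B3galt5D116A and 0.0520% in B3gnt7-/-, each against wild-type. At an unadjusted p under 0.05, 5 of the 9 members were higher and 0 lower in St6galnac6-/-, where 4.07% of tested genes were higher and 4.98% lower. In B3galt5D116A 1 was higher and 0 lower, beside 5.84% and 5.90% of tested genes. In B3gnt7-/- 1 was higher and 0 lower, beside 2.88% and 4.29%. The count of 5 in St6galnac6-/- belongs to the main fit. Of these 5, Dll1 had a limma unadjusted p of 0.0482, and was over 0.05 with no filter on low values. With each library left out in turn, the lowest log2 differences were 0.35 for Spdef, 0.57 for Gfi1 and 0.37 for Foxa3. They were 0.34 for Dll1 and 0.36 for Dll4. Those fits left 1 library in a compared group, so they cannot decide whether the count holds. The median log2 difference of the 9 was 0.45 in St6galnac6-/-, 0.17 in B3galt5D116A and 0.25 in B3gnt7-/-, and that of all tested genes was 0.0030, 0.0012 and -0.0095.

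**Figure D1:**
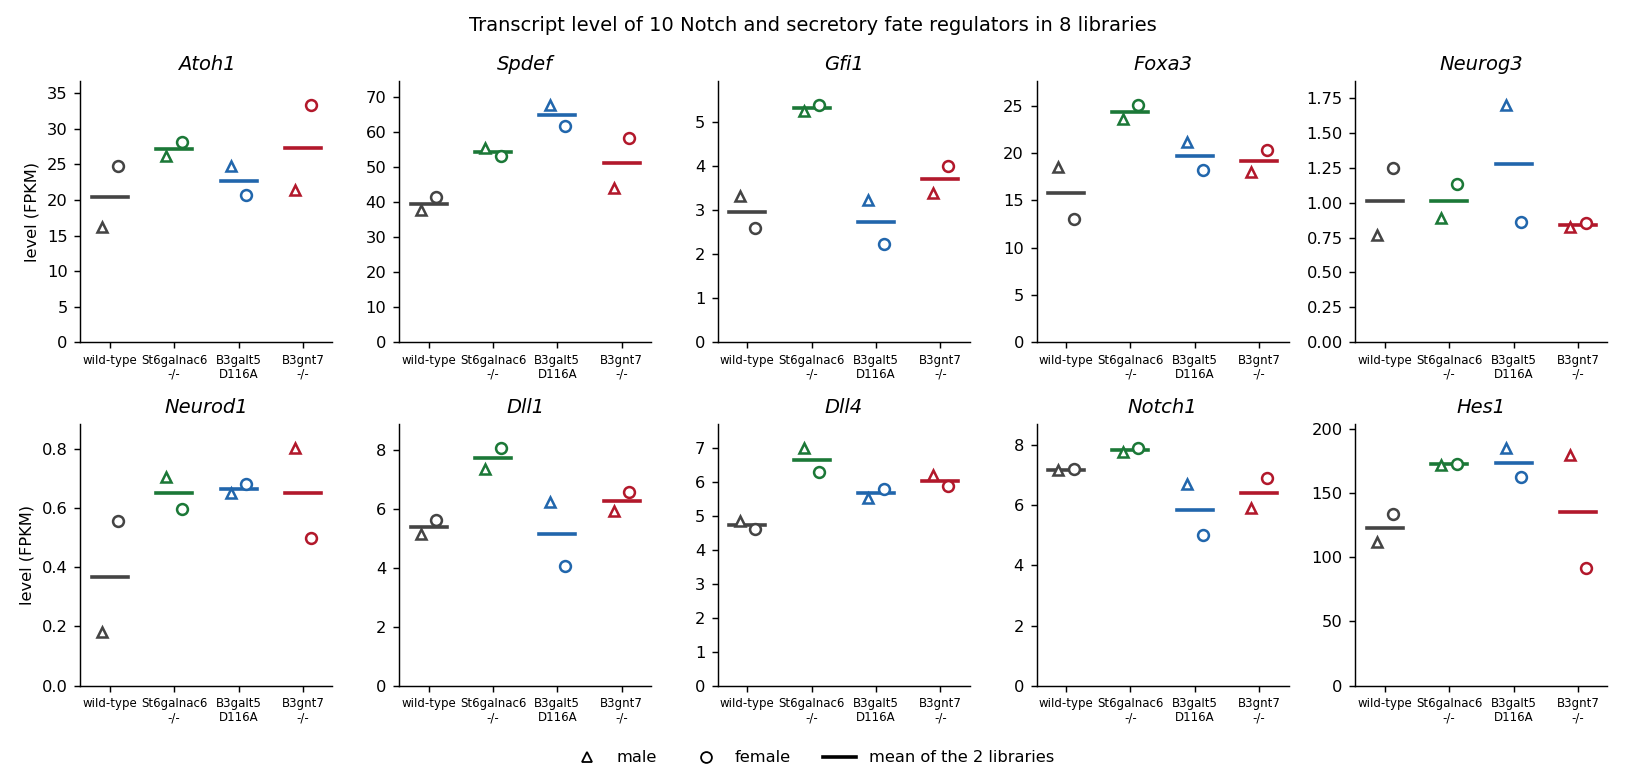
FPKM of each of the 10 regulators in the 8 libraries, 1 panel per gene with its own axis from 0; triangles are male and circles female libraries, and the bar is the mean of the 2. Spdef and Dll4 are higher in all 6 mutant libraries than in wild-type, while the B3gnt7-/- female library is the lowest of the 8 for Hes1 at 91.7 FPKM.

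The regulators spanned a wide range of levels. Hes1 was the highest, with a mean of 151 FPKM over the 8 libraries, followed by Spdef at 52.4, Atoh1 at 24.4 and Foxa3 at 19.7 FPKM. The ranges over libraries of Hes1 and Spdef, and of Spdef and Atoh1, did not overlap, while Atoh1 exceeded Foxa3 in 7 of 8 libraries. Notch1 at 6.82, Dll1 at 6.12 and Dll4 at 5.78 FPKM formed a close group, with each above the next in 6 of 8 libraries. Gfi1 followed at 3.68 FPKM, then Neurog3 at 1.03 and Neurod1 at 0.583 FPKM.

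Atoh1 (chr6:64729125-64731245, plus strand, in mm10) encodes the basic helix-loop-helix factor at the head of the secretory lineages. Its level was 16.2 FPKM in the wild-type male and 24.7 in the wild-type female library. It was 26.2 FPKM in the male and 28.2 in the female of St6galnac6-/-, 24.7 and 20.6 in B3galt5D116A, and 21.3 and 33.3 in B3gnt7-/-. The wild-type libraries differed by more from each other than the St6galnac6-/- or B3galt5D116A libraries did, and the B3galt5D116A and B3gnt7-/- ranges overlapped that of wild-type. The fitted log2 difference from wild-type was 0.42 in St6galnac6-/- (95% interval -0.09 to 0.94, limma adjusted p = 0.623), 0.17 in B3galt5D116A (adjusted p = 0.766) and 0.40 in B3gnt7-/- (adjusted p = 0.770). Without the B3gnt7-/- female library, which had the highest Atoh1 value of all, the last difference was 0.16, and without the male it was 0.64. Leaving out the wild-type male or female gave 0.21 or 0.63 in St6galnac6-/-. Of the 11528 other tested genes, those whose log2 values followed Atoh1 most closely over the 8 libraries were Cask (Pearson r = 0.977), Pfas (0.974) and Smarcd1 (0.968), picked as the highest among all of them and given as a description.

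Spdef (chr17:27714352-27728955, minus strand) encodes an ETS factor that drives goblet cell maturation. It stood at 37.6 and 41.4 FPKM in the wild-type male and female, 55.5 and 53.1 in St6galnac6-/-, 67.7 and 61.7 in B3galt5D116A, and 43.9 and 58.2 in B3gnt7-/-. The mean was 39.5 ± 2.70 FPKM in wild-type and 64.7 ± 4.26 in B3galt5D116A (SD, n = 2), and all 6 mutant values were above both wild-type values. In B3galt5D116A the log2 difference was 0.70 (SE 0.15, 95% interval 0.34 to 1.05), with an unadjusted p of 0.00235 and an adjusted p of 0.268 by limma. It was 0.45 in St6galnac6-/- (95% interval 0.09 to 0.81, adjusted p = 0.453) and 0.35 in B3gnt7-/- (adjusted p = 0.696). That last value was 0.14 without the B3gnt7-/- female library. Spdef exceeded Atoh1 in each library, by a ratio of 1.68 in the wild-type female to 2.99 in the B3galt5D116A female.

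The stretches upstream of Spdef and of Dll4, the pair higher in all 6 mutant libraries, are shown because they can be set beside the DNA words of the Notch pathway. Each is the 250 bases before the gene's start, from RefSeq on GRCm38.p6 (the assembly also called mm10), read in the direction of the gene. Capitals mark a match to one of the words searched, on either strand. Spdef lies at chr17:27728952-27729201 on the minus strand and Dll4 at chr2:119325534-119325783 on the plus strand.
Spdef: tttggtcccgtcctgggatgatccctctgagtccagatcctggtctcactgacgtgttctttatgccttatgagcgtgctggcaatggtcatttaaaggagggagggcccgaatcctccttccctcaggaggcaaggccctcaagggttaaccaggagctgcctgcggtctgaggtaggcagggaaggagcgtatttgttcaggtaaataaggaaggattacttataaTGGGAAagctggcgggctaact
Dll4: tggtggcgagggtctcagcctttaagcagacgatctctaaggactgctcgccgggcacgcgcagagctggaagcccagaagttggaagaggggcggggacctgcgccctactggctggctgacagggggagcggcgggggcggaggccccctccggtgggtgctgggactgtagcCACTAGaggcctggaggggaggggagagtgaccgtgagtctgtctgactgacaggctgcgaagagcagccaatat
Upstream of Spdef, TGGGAA, the core of the word read by RBPJ, was found 22 bases before the start. Upstream of Dll4, CACNAG, a word bound by Hes repressors, was found 75 bases before the start. Of the 10 members 9 matched the RefSeq table, with 11 upstream windows, and Hes1 did not. TGGGAA was in 1 of the 11 windows and in 21.6% of the 32851 windows of all genes. CACNAG was in 2 of the 11, Dll4 and Notch1, and in 36.7% of all. The wider word of basic helix-loop-helix factors, CANNTG, was in 7 of the 11 windows, those of Dll1, Foxa3, Gfi1, Neurod1 and Neurog3, and in 66.2% of all. Its form CAGCTG, which Atoh1 is known to bind, is a subset of it and was in 2 of the 11, Dll1 and Neurog3, and in 13% of all. A match is a run of letters and not a measured binding site.

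Gfi1 (chr5:107716657-107726036, minus strand), a zinc finger repressor that keeps goblet precursors from the enteroendocrine path, had its highest values in St6galnac6-/-. Its levels were 3.33 and 2.60 FPKM in the wild-type male and female, 5.25 and 5.40 in St6galnac6-/-, 3.23 and 2.24 in B3galt5D116A, and 3.39 and 4.01 in B3gnt7-/-. Both St6galnac6-/- libraries were above the other 6, and the B3galt5D116A values overlapped those of wild-type. Against wild-type, Gfi1 had the largest log2 difference of the 9 members in St6galnac6-/-, 0.68 (SE 0.18, 95% interval 0.25 to 1.11, unadjusted p = 0.00714), with an adjusted p of 0.342 by limma. Gfi1 was also 0.77 higher in St6galnac6-/- than in B3galt5D116A (95% interval 0.34 to 1.20, adjusted p = 0.813), and the difference was not called. Annotated noncoding transcripts overlap Gfi1, Dll1, Dll4, Notch1 and Neurod1 on the other strand, and the microRNA gene Mir6996 overlaps Notch1 on the same strand. The library kit marks strand, but the strand setting of the counting is not given in the sources used here.

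Foxa3 (chr7:19013284-19023538, minus strand) encodes a forkhead factor expressed in gut epithelium with a part in goblet cell differentiation. It stood at 18.5 and 13.03 FPKM in the wild-type male and female, 23.6 and 25.1 in St6galnac6-/-, 21.1 and 18.2 in B3galt5D116A, and 18.02 and 20.3 in B3gnt7-/-. The 2 St6galnac6-/- values were the highest of the 8, and the ranges of the other mutants overlapped that of wild-type. The log2 difference was 0.61 in St6galnac6-/- (SE 0.17, 95% interval 0.21 to 1.02, unadjusted p = 0.00867, limma adjusted p = 0.360). It was 0.31 in B3galt5D116A and 0.28 in B3gnt7-/-, with adjusted p of 0.495 and 0.793. These values depended on the wild-type libraries: leaving out the wild-type female or male gave 0.37 or 0.86 in St6galnac6-/-, 0.068 or 0.56 in B3galt5D116A, and 0.036 or 0.53 in B3gnt7-/-.

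Neurog3 (chr10:62133090-62134763, plus strand), the factor that commits precursors to the enteroendocrine path, was near 1 FPKM throughout. It was 0.772 and 1.25 FPKM in the wild-type male and female, 0.889 and 1.14 in St6galnac6-/-, 1.70 and 0.858 in B3galt5D116A, and 0.825 and 0.852 in B3gnt7-/-. All 3 mutant ranges overlapped that of wild-type, or lay within it, and the highest value of the 8 was that of the B3galt5D116A male. The log2 difference in St6galnac6-/- was 0.0096, with a 95% interval of -0.60 to 0.62 and a limma adjusted p of 0.995. Neurog3 overlaps Fam241b, which lies on the other strand.

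Neurod1 (chr2:79452521-79456751, minus strand), which acts after Neurog3 in the same lineage, was the lowest member. It was 0.180 and 0.556 FPKM in the wild-type male and female, 0.704 and 0.597 in St6galnac6-/-, 0.651 and 0.680 in B3galt5D116A, and 0.802 and 0.497 in B3gnt7-/-. The wild-type male was the lowest of the 8 libraries, and the B3gnt7-/- female was below the wild-type female. With no filter on low values, 17801 genes were tested, and the log2 difference of Neurod1 was 0.28 in St6galnac6-/-, 0.30 in B3galt5D116A and 0.28 in B3gnt7-/-. The limma adjusted p was 0.741, 0.616 and 0.780. The span of Neurod1 overlaps that of Cerkl on the same strand. Whether exons are shared was not examined, so the origin of reads in the shared stretch is not known here.

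Of the ligands, Dll1 (chr17:15367354-15376872, minus strand), which secretory precursors carry, was highest in St6galnac6-/-. Its values were 5.15 and 5.63 FPKM in the wild-type male and female, 7.35 and 8.05 in St6galnac6-/-, 6.21 and 4.07 in B3galt5D116A, and 5.93 and 6.55 in B3gnt7-/-. The B3galt5D116A male and female lay on either side of wild-type. In St6galnac6-/- the log2 difference was 0.45 (95% interval 0.0047 to 0.89, unadjusted p = 0.0482, limma adjusted p = 0.546). It was -0.08 in B3galt5D116A and 0.18 in B3gnt7-/-, with adjusted p of 0.879 and 0.882.

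Dll4 (chr2:119325784-119335962, plus strand), the other ligand of the crypt and also a gene of endothelium, stood at 4.86 and 4.62 FPKM in the wild-type male and female. It was 7.01 and 6.29 FPKM in St6galnac6-/-, 5.53 and 5.80 in B3galt5D116A, and 6.20 and 5.88 in B3gnt7-/-. All 6 mutant values were above both wild-type values, and within each genotype the 2 libraries were close. The log2 difference was 0.41 in St6galnac6-/- (95% interval 0.12 to 0.71, unadjusted p = 0.0128), 0.22 in B3galt5D116A and 0.30 in B3gnt7-/- (95% interval 0.00099 to 0.59, unadjusted p = 0.0494). The limma adjusted p was 0.406, 0.509 and 0.695. The 13 endothelial markers summed to 2.09 and 2.56 FPKM in wild-type, 1.76 and 2.04 in St6galnac6-/-, 2.29 and 2.42 in B3galt5D116A, and 2.01 and 2.74 in B3gnt7-/-, with Emcn, Erg and Sox17 at 0 in all 8 libraries.

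Notch1 (chr2:26457903-26516663, minus strand), the receptor, was the steadiest member in wild-type, at 7.17 and 7.19 FPKM. It was 7.78 and 7.91 FPKM in St6galnac6-/-, 6.70 and 5.01 in B3galt5D116A, and 5.91 and 6.92 in B3gnt7-/-. The 2 wild-type values lay between those of St6galnac6-/- above and all 4 of the other mutants below. None of these differences passed the test. The log2 difference was 0.11 in St6galnac6-/- (95% interval -0.26 to 0.48), -0.27 in B3galt5D116A (-0.64 to 0.10) and -0.15 in B3gnt7-/-, with limma adjusted p of 0.885, 0.518 and 0.890. Without the B3gnt7-/- female the last value was -0.30, and without the male it was 0.0089. The ratio of Dll4 to Notch1 was 0.678 and 0.642 in wild-type and between 0.795 and 1.16 in the 6 mutant libraries, and that of Dll1 to Notch1 was 0.719 and 0.782 in wild-type and 0.812 to 1.02 in the mutants. Both ratios were thus higher in each mutant library than in wild-type. No test was made of them, and no share over other gene pairs was computed. In the B3galt5D116A female, Dll1 itself was below both wild-type values, at 4.07 FPKM, and Notch1 was at its lowest. The other ratios formed did not separate in this way. That of Hes1 to Notch1 was 15.6 and 18.5 in wild-type and 13.2 in the B3gnt7-/- female. Notch1, Neurod1 and Dll4 lie on chromosome 2 with St6galnac6, at 6.08, 46.8 and 86.7 Mb from it, and Hes1 66.2 Mb from B3galt5 on chromosome 16.

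**Figure D2:**
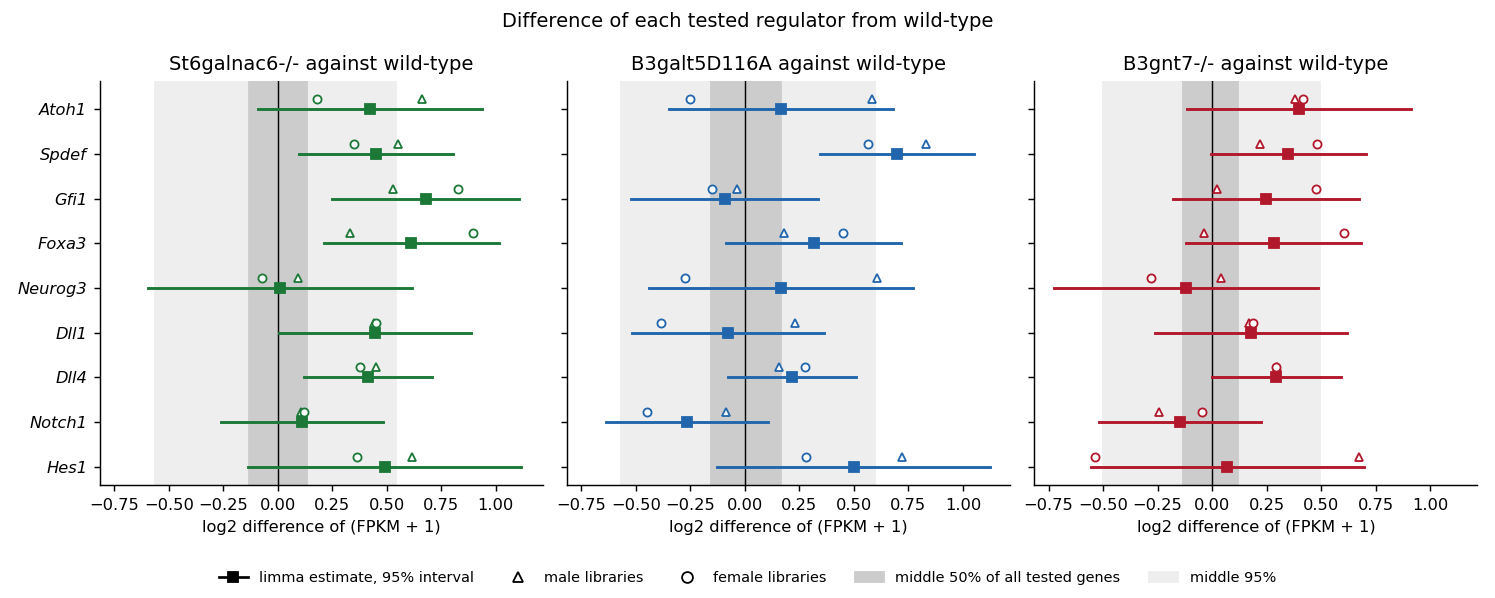
Log2 difference in log2(FPKM + 1) of the 9 tested members from wild-type, 1 panel per mutant; filled points are limma estimates with 95% intervals, open triangles and circles the male and female differences, and grey bands hold the middle 50% and 95% of all tested genes. In St6galnac6-/- all 9 estimates are above 0, from 0.0096 for Neurog3 to 0.68 for Gfi1.

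Hes1 (chr16:30064384-30067796, plus strand), the Notch target that represses Atoh1, was at 112 and 133 FPKM in the wild-type male and female and 172 in both St6galnac6-/- libraries. It was 185 and 162 FPKM in B3galt5D116A, and 179 and 91.7 in B3gnt7-/-. The first 5 mutant libraries, in the order given, were above both wild-type libraries, and the B3gnt7-/- female was below both. The mean was 122.7 ± 15.2 FPKM in wild-type and 135.5 ± 61.9 in B3gnt7-/- (SD, n = 2). The log2 difference from wild-type was 0.49 in St6galnac6-/- (95% interval -0.14 to 1.12), 0.50 in B3galt5D116A (-0.13 to 1.12) and 0.07 in B3gnt7-/- (-0.56 to 0.69), with limma adjusted p of 0.636, 0.489 and 0.971. Leaving out the wild-type male or female gave 0.17 or 0.81 in St6galnac6-/- and 0.18 or 0.82 in B3galt5D116A. In B3gnt7-/-, leaving out the female turned the value to 0.56, and leaving out the male to -0.42. Hes1 exceeded Atoh1 by a ratio of 5.40 to 8.40 in the first 7 libraries and of 2.75 in the B3gnt7-/- female, where Atoh1 was at its highest.

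The genes most like Hes1 over the 8 libraries were Hspb1, a small heat shock protein (r = 0.990), Ddit4, a stress-induced inhibitor of mTOR signalling (0.983), and Dnaja4, a co-chaperone (0.979). Hspb1 stood at 8.54 and 16.1 FPKM in wild-type, between 43.0 and 57.3 in the first 5 mutant libraries, and at 3.0 in the B3gnt7-/- female. Ddit4 and Dnaja4 showed the same split, with the B3gnt7-/- female at 34.4 and 2.94 FPKM, below wild-type at 54.5 and 63.7 for Ddit4 and 5.86 and 8.61 for Dnaja4. A list of 14 heat shock genes, drawn up after this likeness was seen, holds Hspb1 and Dnaja4 and so is not independent of it. The list summed to 3746 and 4344 FPKM in wild-type, 5846 to 6394 in the first 5 mutant libraries and 2353 in the B3gnt7-/- female. Of its 13 tested members none was called. The part of these genes in the Hes1 values was not tested.

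**Figure D3:**
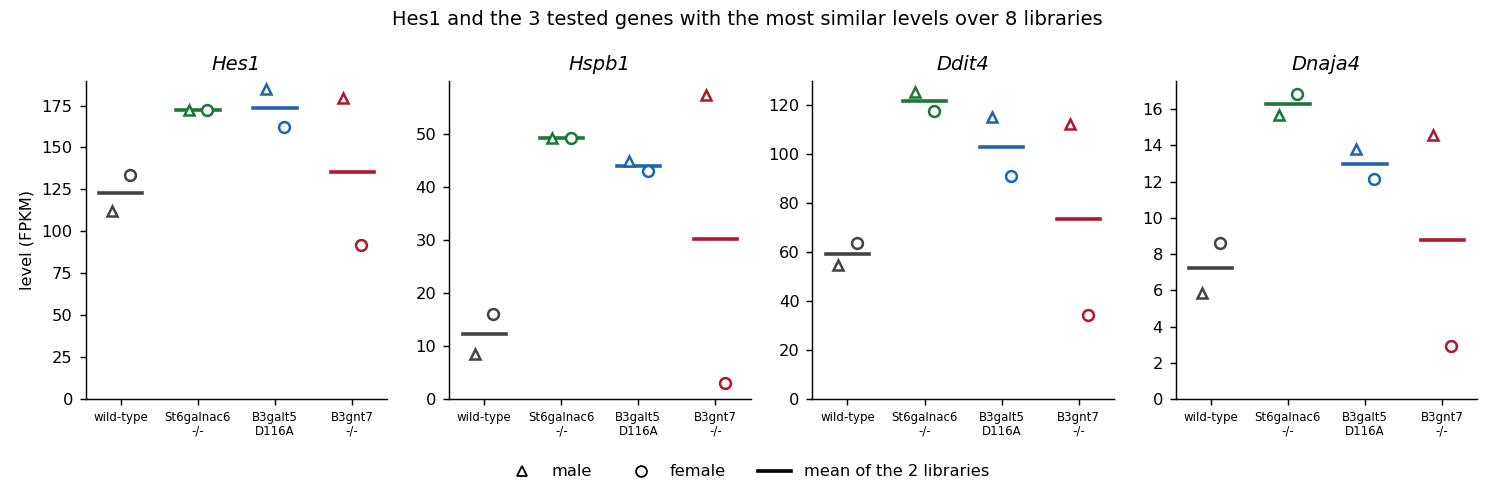
FPKM of Hes1 and of the 3 tested genes whose log2 values follow it most closely, by library, each panel with its own axis from 0; triangles are male and circles female libraries. In all 4 panels the B3gnt7-/- female is the lowest library, at 91.7 FPKM for Hes1 and 3.0 FPKM for Hspb1.

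The mutants were also compared with each other. Both St6galnac6-/- libraries were above both B3galt5D116A libraries for 6 of the 10 (Atoh1, Gfi1, Foxa3, Dll1, Dll4 and Notch1) and below for Spdef, where 22.2% of tested genes were above and 20.3% below. No member was called, and 0.0260% of tested genes were. At an unadjusted p under 0.05, Gfi1, Dll1 and Notch1 were higher and none was lower, beside 1.61% and 1.90% of tested genes. Their differences were 0.77, 0.52 and 0.38 on the log2 scale. They were 0.56, 0.21 and 0.19 between males and 0.98, 0.84 and 0.57 between females. Against B3gnt7-/-, St6galnac6-/- was above in both libraries for 6 of the 10 (Gfi1, Foxa3, Neurog3, Dll1, Dll4 and Notch1) and below for 0, beside 16.1% and 13.5% of tested genes. None was called by limma, where 0.0433% of tested genes were. Gfi1 alone passed an unadjusted threshold of 0.05, at 0.43 higher on the log2 scale, beside 1.65% of tested genes higher and 2.16% lower. B3galt5D116A was above B3gnt7-/- for Spdef and Neurog3 and below for Gfi1 and Dll4, where 18.6% and 15.8% of tested genes were above and below, and 0.00867% were called, none of them a member. No member had an unadjusted p under 0.05 there, beside 4.20% of tested genes. Between males and females the log2 differences ran from -0.26 for Atoh1 to 0.22 for Hes1, and 0 of the 9 had an unadjusted p under 0.05, beside 1.66% of tested genes, while 0.0520% of tested genes and no member were called.

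The rest of the Notch pathway held no called gene. Of 51 further genes, from receptors to proteases and coactivators, 36 were tested and none was called in any mutant against wild-type. At an unadjusted p under 0.05, 3 were higher and 0 lower in St6galnac6-/-, 3 higher and 4 lower in B3galt5D116A, and 2 higher and 0 lower in B3gnt7-/-, beside 4.07% and 4.98%, 5.84% and 5.90%, and 2.88% and 4.29% of tested genes. The median log2 difference was 0.03, -0.06 and -0.02, and the summed level of the 51 genes stayed between 716 and 756 FPKM in the 8 libraries. The member of the list with the smallest unadjusted p in St6galnac6-/- was Lfng, a glycosyltransferase that extends O-fucose on Notch. It stood at 6.00 and 7.40 FPKM in wild-type and 7.58 to 10.3 in the 6 mutant libraries, with log2 differences of 0.45, 0.43 and 0.25 that did not pass (limma adjusted p = 0.496, 0.398 and 0.806). Kat2b, a histone acetyltransferase, Maml3, a coactivator of the Notch complex, and Spen, a corepressor with RBPJ, had log2 differences of -0.42, -0.59 and -0.48 in B3galt5D116A and did not pass, with adjusted p of 0.386, 0.386 and 0.390. Nrarp, a feedback inhibitor that Notch turns on, was picked for its role after its values were seen. It was 12.6 and 11.8 FPKM in wild-type, 11.7 and 14.0 in St6galnac6-/-, 16.9 and 20.4 in B3galt5D116A, and 16.1 and 10.5 in B3gnt7-/-, with a log2 difference of 0.57 in B3galt5D116A (adjusted p = 0.396). Like Hes1, Nrarp was lowest in the B3gnt7-/- female, while in St6galnac6-/-, where Hes1 was above wild-type in both libraries, the Nrarp values lay on either side of wild-type.

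Among 34 other transcription factors of the secretory lineages, 18 were tested and none was called. In St6galnac6-/- 5 were higher and 1 lower at an unadjusted p under 0.05, in B3galt5D116A 1 and 1, and in B3gnt7-/- 2 and 1. The shares of tested genes higher and lower were 4.07% and 4.98%, 5.84% and 5.90%, and 2.88% and 4.29%. The median log2 differences of the 18 were 0.16, 0.05 and 0.06. Klf4, a zinc finger factor of goblet and surface cells, was lower by value in each mutant. It was 465 and 397 FPKM in wild-type and 228 to 353 in the 6 mutant libraries, with log2 differences of -0.51, -0.80 and -0.46 and limma adjusted p of 0.470, 0.268 and 0.663. Foxa2, a relative of Foxa3, had differences of 0.62, 0.45 and 0.38, and Bhlha15, a factor of cells with heavy secretion, of 0.66, 0.41 and 0.20, all uncalled. Ascl2, a factor of crypt base stem cells, had 0.49, 0.05 and 0.56, also uncalled. Of 12 factors of absorptive cells, such as Hnf4a and Cdx2, 10 were tested, none was called, and none had an unadjusted p under 0.05 in any of the 3 comparisons.

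Markers of the cell types that these factors specify also differed by value. The 22 goblet cell markers summed to 11065 and 10848 FPKM in wild-type and to 12561 to 16508 FPKM in the mutant libraries. Their median log2 difference was 0.35 in St6galnac6-/-, 0.23 in B3galt5D116A and 0.45 in B3gnt7-/-. In St6galnac6-/- Ang4, a secreted antimicrobial ribonuclease, was higher, at 361 and 158 FPKM against 3.98 and 7.56 in wild-type (limma adjusted p = 0.0468). With no filter on low values, 0 genes were called in that comparison, so this call did not hold there. Ang4 was also above wild-type by value, and not called, in B3galt5D116A at 61.5 and 191 FPKM (log2 difference 4.07, adjusted p = 0.0932) and in B3gnt7-/- at 27.3 and 58.2 FPKM (2.65, adjusted p = 0.367). At an unadjusted p under 0.05, 10 of the 22 were higher and 0 lower in St6galnac6-/-, 5 and 1 in B3galt5D116A, and 11 and 1 in B3gnt7-/-, beside 4.07% and 4.98%, 5.84% and 5.90%, and 2.88% and 4.29% of tested genes. The 20 enteroendocrine markers summed to 155 and 223 FPKM in wild-type, 335 and 250 in St6galnac6-/-, 333 and 376 in B3galt5D116A, and 338 and 202 in B3gnt7-/-. The 13 that were tested had medians of 0.59, 0.68 and 0.56. Insl5, a colonic peptide hormone, was higher in B3galt5D116A, at 51.8 and 46.2 FPKM against 11.04 and 12.996 in wild-type (limma adjusted p = 0.00693). With no filter on low values, 1 gene was called in that comparison, and whether it was Insl5 is not given here. Insl5 was above wild-type by value, and not called, in St6galnac6-/- at 28.4 and 26.0 FPKM (log2 difference 1.12, adjusted p = 0.0695) and in B3gnt7-/- at 26.2 and 29.2 FPKM (1.14, adjusted p = 0.0785). Neurog3 and Neurod1 had no called difference in any mutant. The 19 absorptive colonocyte markers summed to 19765 and 18802 FPKM in wild-type, 16380 and 13330 in St6galnac6-/-, 17572 and 27351 in B3galt5D116A, and 22697 and 15074 in B3gnt7-/-, so the sums of the last 2 genotypes lay on either side of wild-type. The 19 had median log2 differences of -0.39, -0.22 and -0.09, with 6, 3 and 2 lower and 0 higher at an unadjusted p under 0.05, and none called, and 0, 7 and 6 of the 19 had a positive difference. In tissue of mixed cells, more cells of a type and more RNA per cell cannot be told apart.

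Other lists, chosen like these with earlier results of these data known, also differed by value between wild-type and the mutants. Of 13 tested stem cell markers, 12, 8 and 10 had positive differences in St6galnac6-/-, B3galt5D116A and B3gnt7-/-, and none was called. At an unadjusted p under 0.05, 6, 3 and 3 were higher and 0 lower, beside 4.07%, 5.84% and 2.88% of tested genes higher and 4.98%, 5.90% and 4.29% lower. Of 7 tested tuft cell markers 6, 7 and 6 had positive differences, with none called. All 25 proliferation genes had positive differences in each mutant, where 50.6%, 50.2% and 47.9% of tested genes did, with medians of 0.62, 0.73 and 0.40 and none called. Their summed level was 427 and 442 FPKM in wild-type, 484 and 811 in St6galnac6-/-, 638 and 744 in B3galt5D116A, and 676 and 432 in B3gnt7-/-, so the B3gnt7-/- female lay between the wild-type libraries. The 22 immediate early genes had medians of -0.59, -0.56 and -0.53. Nr4a1 and Csrnp1, of that list, were called as lower in all 3 mutants, and Nr4a3 in St6galnac6-/- and B3galt5D116A. Over all tested genes 0.0867%, 0.0780% and 0.0520% were called in the 3 mutants, in either direction. Nr4a1 stood at 355 and 288 FPKM in wild-type and 108 to 152 in the mutant libraries. With no filter on low values, 0 genes were called in St6galnac6-/-, 1 in B3galt5D116A and 2 in B3gnt7-/-, so not all of these calls held. The summed level of the list was 7873 and 6711 FPKM in wild-type and 4526 to 5509 FPKM in the mutants. The part of these differences in the values of the 10 regulators was not tested.

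**Figure D4:**
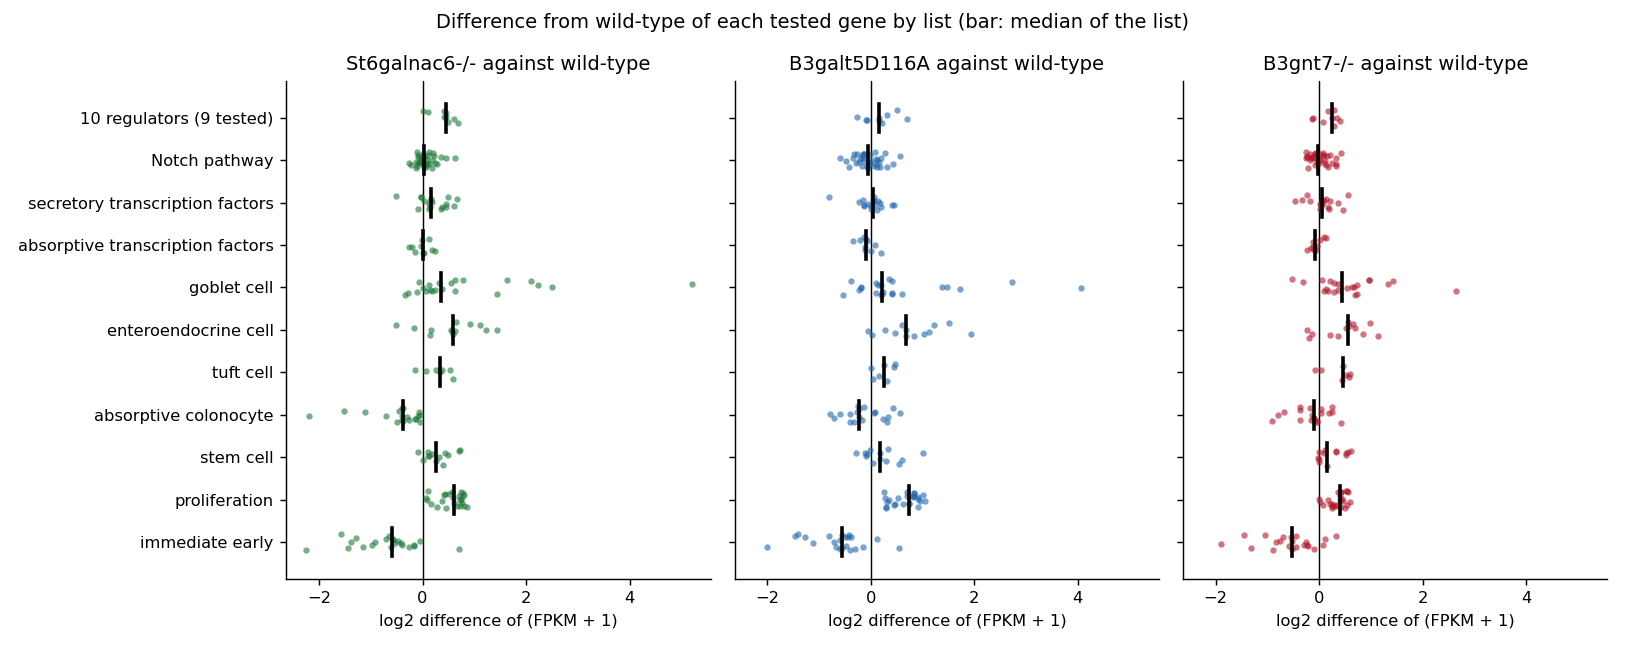
Log2 difference from wild-type of each tested gene, by gene list and mutant, with a bar at the list's median. The Notch pathway genes centre near 0 with medians of 0.03, -0.06 and -0.02, while the proliferation genes all lie above 0 and the immediate early genes mostly below.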

How the data were processed

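RNA from colon epithelial cells was sequenced in 8 libraries, 1 male and 1 female for each of 4 genotypes. Per the labels' protocols, the miRNeasy Micro Kit was used to extract RNA and a TruSeq kit for stranded mRNA to build libraries. Cuffdiff 2.2.1, TopHat2 2.1.1, SAMtools 0.1.18 and Bowtie2 2.2.8, with the build mm10, are listed in the submitters' processing notes. Parameters, annotation and the scaling between libraries are not given in the sources used here. The authors deposited 1 table of FPKM values per library, per the file headers.

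Values were taken as log2(FPKM + 1), so a fold is understated for low genes. Genes whose mean reached 1 FPKM (11537 of 24346) were fitted with limma 3.58.1 in R 4.3.3, with genotype and sex as terms, all 8 libraries in 1 fit, a mean-variance trend and two-sided tests. The fit had 3 residual and 4.02 prior degrees of freedom. Adjustment was by Benjamini-Hochberg over all tested genes, within each of 7 comparisons, with a threshold of 0.05. The spread is pooled over genotypes. With 1 library per genotype and sex, no interaction could be fitted. The labels do not say that libraries are separate animals, so p-values measure the spread between these libraries, and they name no batch. The test was checked on simulated data. Between genotypes, an added log2 difference of 1 was called in 60% to 69% of the genes given it, and no smaller difference was tried. The largest fitted difference of a member was 0.77.

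Named genes are the 10 members, the targeted genes, those called or with the smallest p in each list, and the 3 genes most like Atoh1 and Hes1. Epcam, Emcn, Erg, Sox17 and Dcn are named as cell type markers, and Nrarp, Hnf4a and Cdx2 were named after their values were seen. Members and lists were chosen with earlier results of these data known. Gene positions are from GENCODE M21 on mm10, and upstream sequences from RefSeq on GRCm38.p6. Alternatives were other pseudocounts (0.1 and 5), filters, scalings and model terms, and leaving out each library.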

Additional observations from a re-analysis of the deposited data

Results flagged for a closer look

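Hes1 in B3gnt7-/- differed from wild-type in opposite directions in the 2 sexes. On the log2(FPKM + 1) scale the male library was 0.67 higher than the wild-type male and the female library 0.54 lower than the wild-type female, so that the difference in males minus that in females was 1.21. With 1 library for each genotype and sex this difference was not tested. It was singled out because both differences were at least 0.5 in size with opposite signs, which held for 94 of the 11537 tested genes (0.815%) in this comparison and for no other member in any comparison with wild-type. The B3gnt7-/- female library also had the highest fibroblast marker sum and the lowest summed heat shock genes of the 8. The heat shock list was drawn up after a likeness to Hes1 was seen, and the part of either sum was not tested.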

How the results depend on the processing

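No member was called in any of the 118 alternative counts over the 7 comparisons, and the smallest adjusted p of a member was 0.0918, for Spdef in B3galt5D116A against wild-type without the B3gnt7-/- male library (limma, range over its alternatives 0.0918 to 0.812). Of 63 member differences, 39 kept their sign in all alternatives, as did 19 of the 27 against wild-type. None of the 24 that changed sign was past the threshold. Apart from fits that left out a library, Neurog3 in St6galnac6-/- against wild-type was -0.0035 with median centring, and with quantile normalization Hes1 in St6galnac6-/- against B3galt5D116A was 0.12 and Atoh1 in St6galnac6-/- against B3gnt7-/- was -0.018. The Neurog3 log2 difference, male against female, was 0.0034 with a pseudocount of 5 and 0.025 with quantile normalization.

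For the differences that changed sign, leaving out each library in turn gave these lowest and highest log2 values. In St6galnac6-/- against wild-type Neurog3 ran from -0.22 to 0.24. In B3galt5D116A against wild-type Atoh1 ran from -0.18 to 0.51, Gfi1 from -0.28 to 0.091, Neurog3 from -0.061 to 0.53 and Dll1 from -0.39 to 0.23. In B3gnt7-/- against wild-type Neurog3 ran from -0.35 to 0.11, Notch1 from -0.30 to 0.0089 and Hes1 from -0.42 to 0.56. In St6galnac6-/- against B3galt5D116A Atoh1 ran from -0.088 to 0.60 and Hes1 from -0.16 to 0.14. In St6galnac6-/- against B3gnt7-/- Atoh1 ran from -0.21 to 0.26, Spdef from -0.11 to 0.31 and Hes1 from -0.069 to 0.91. In B3galt5D116A against B3gnt7-/- Atoh1 ran from -0.57 to 0.11, Foxa3 from -0.15 to 0.21, Dll1 from -0.57 to 0.054, Notch1 from -0.34 to 0.094 and Hes1 from -0.060 to 0.92. In males against females Spdef ran from -0.16 to 0.020, Foxa3 from -0.015 to 0.20, Neurog3 from -0.18 to 0.11, Dll1 from -0.12 to 0.10, Notch1 from -0.074 to 0.11 and Hes1 from -0.021 to 0.38. The group then left with 1 library was assumed to vary like the others. Others kept their sign and still moved by over 1.5 times. In B3gnt7-/- against wild-type Spdef ran from 0.14 to 0.56, Gfi1 from 0.051 to 0.45 and Dll1 from 0.070 to 0.29. In B3galt5D116A against wild-type Notch1 ran from -0.48 to -0.051, Dll4 from 0.14 to 0.29 and Spdef from 0.55 to 0.84. In St6galnac6-/- against wild-type Spdef ran from 0.35 to 0.55, Dll1 from 0.34 to 0.55 and Notch1 from 0.076 to 0.15. In St6galnac6-/- against B3galt5D116A Dll1 ran from 0.21 to 0.84 and Notch1 from 0.16 to 0.60. Further differences between mutants and between sexes are not listed here. Foxa3, Hes1 and Atoh1 are given with their values above.

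The counts over all genes moved more. St6galnac6-/- against wild-type had 10 called genes, 0 with no filter on low values, 49 with only those genotypes fitted, and 65 or 60 without the B3gnt7-/- male or female library. B3galt5D116A had 9, with 1 to 16 over the other settings. B3gnt7-/- had 6, with 2 to 7, and 53 or 12 without its male or female library. Likewise, St6galnac6-/- against B3gnt7-/- had 44 or 9, from 5, B3galt5D116A against B3gnt7-/- had 49 or 7, from 1, and St6galnac6-/- against B3galt5D116A had 10 without either, from 3. The cause was not tested. A mean of at least 5 FPKM left out Gfi1 and Neurog3. The labels give no replicate numbers; sex, which each genotype shares, is a term of the fit, and no member was called with or without it.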
